A study of Mus musculus with 3 samples.

Results

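The genes described are 8 receptors of the tumour necrosis factor (TNF) receptor superfamily and 2 of the adaptor proteins that bind them, the TNF receptor associated factors (TRAFs). They are the 10 genes named Tnfrsf4, Tnfrsf18, Tnfrsf9, Cd27, Tnfrsf14, Tnfrsf1b, Tnfrsf1a, Tnfrsf25, Traf1 and Traf2 in the GENCODE M21 annotation, of 55536 annotated genes in the deposited gene tables. Rows were picked by gene name alone, and each gene has exactly 1 row. The RNA came from primary regulatory T cells that the labels call inflammation-experienced, from 1 male adult mouse aged 16 weeks of the strain Foxp3GFP-DTRCD4CreERT2R26tdTomato, whose name joins Foxp3, green fluorescent protein, the diphtheria toxin receptor, CD4, a tamoxifen-inducible Cre and the tdTomato reporter of the R26 locus. The labels do not say how the cells were sorted, what inflammation they met, or whether tamoxifen or toxin was given. PolyA-selected RNA was sequenced in 3 libraries, which the labels number as technical replicates 1 to 3 of 1 biological replicate. The 3 libraries form the only group, so there is no contrast between conditions, and every SD below is a spread between libraries and not between animals.

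Receptors of this superfamily are trimeric surface proteins that T cells use to receive signals from TNF family ligands on other cells. Most of the costimulatory receptors have short cytoplasmic tails that recruit TRAF proteins, which assemble ubiquitin ligases and kinases and lead to activation of the transcription factor NF-kB. A second class carries a cytoplasmic death domain, which binds the adaptor TRADD and can lead to NF-kB activation or to cell death. GITR, OX40 and TNF receptor 2 are well known on regulatory T cells, where they are used as markers and as targets of agonist antibodies.

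The libraries held 20942875, 18402479 and 17494966 expected counts on annotated genes, so a gene at the level of the lowest of the 10 still rested on over 100 expected counts in each. Regulatory T cell genes were present as labelled: all 10 of the core list were above 1 TPM in every library (transcript level after division by length, with each library scaled to the same total), with Foxp3 at 77.6, 86.2 and 59.2 TPM, Il2ra at 302, 276 and 275 TPM and Izumo1r, the most abundant of them, at a mean of 887 TPM. All 11 T cell identity genes were above 100 TPM, led by Trbc2, and Cd4 stood at 250, 251 and 298 TPM. Transcripts listed as markers of other cells were also present. The summed level of 12 B cell genes ranged from 1760 to 2180 TPM, most of it Ighm. The sum of 6 erythroid genes, led by Hbb-bs, ranged from 1097 to 1751 TPM. The sums were 126 to 171 TPM for 7 NK cell genes (led by Nkg7) and 72.0 to 85.3 TPM for 9 macrophage and monocyte genes. They were 16.7 to 22.3 TPM for 2 CD8 T cell genes, 2.45 to 3.50 TPM for 6 dendritic cell genes and at most 2.69 TPM for 6 granulocyte genes. The sum of 6 endothelial and stromal genes was 98.9 to 116 TPM, of which Pecam1 held 92.2, 112 and 107 TPM. Cdh5, Kdr, Col1a1 and Col1a2 of that list were under 1 TPM in every library. The sum of 6 plasma cell genes was 37.3 to 174 TPM, with Xbp1 at 52.7, 46.5 and 12.0 TPM. Prdm1 was at 30.7, 18.9 and 13.0 TPM and Igha at 3.77, 92.8 and 1.62 TPM, while Sdc1 and Tnfrsf17 were under 1 TPM in every library. Which cells held these transcripts was not tested, nor was how much of any receptor transcript came from cells other than regulatory T cells. In bulk RNA, fewer cells of a type and less RNA per cell cannot be told apart.

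The costimulatory receptors without a death domain included the 3 most abundant of the 10 genes. TPM divides the counts of a gene by its effective length, so levels of different genes can be set side by side. Tnfrsf4 encodes OX40, a receptor induced on activated T cells. Its level was 825, 665 and 618 TPM in libraries 1, 2 and 3 (mean 703 ± 109, SD, n = 3), which placed it 157th of 22028 protein-coding genes. Tnfrsf18 encodes GITR, which regulatory T cells carry at high levels, and was measured at 652, 586 and 530 TPM (mean 589 ± 60.9). Cd27, the receptor of the ligand CD70, was at 584, 550 and 567 TPM (mean 567 ± 17.3), the steadiest of the 10. Library 1 gave the highest value for all 3 genes, but for Cd27 the margin was small.

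Tnfrsf9 encodes CD137, whose cytoplasmic tail binds TRAF1 and TRAF2. It was at 260, 194 and 216 TPM (mean 223 ± 33.6). Tnfrsf1b encodes TNF receptor 2, the TNF receptor without a death domain, and was at 385, 266 and 241 TPM (mean 297 ± 77.1). Its value in library 1 stood well above the other two, which were close together. Tnfrsf14 encodes HVEM, which binds the ligand LIGHT and the inhibitory receptor BTLA. It was the lowest of the 10 at 12.0, 12.6 and 14.7 TPM (mean 13.1 ± 1.43), with library 3 the highest, on 122, 131 and 180 expected counts.

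The pair of death domain receptors lay below the 5 most abundant of these and above Tnfrsf14. Tnfrsf25 encodes DR3, the receptor of the cytokine TL1A, and was at 161, 161 and 93.4 TPM (mean 139 ± 39.1). Libraries 1 and 2 were nearly equal and library 3 was far below both. Tnfrsf1a encodes TNF receptor 1, which is found on most cell types, and was at 42.2, 46.5 and 34.2 TPM (mean 41.0 ± 6.26), again with library 3 the lowest.

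The adaptors differed in level in the same way in each library. Traf1 encodes the TRAF protein that has no RING domain and forms complexes with TRAF2. It was at 464, 400 and 385 TPM (mean 416 ± 42.0). Traf2, which carries a RING domain and recruits the cIAP ubiquitin ligases, was at 101, 80.9 and 89.7 TPM (mean 90.6 ± 10.2). The deposited credibility intervals did not enclose the deposited TPM of most of these genes. For 8 of the 10 the TPM lay above the upper bound in every library, as for Tnfrsf4 in library 1 with bounds of 722 and 753 TPM, and it lay inside the bounds only for Tnfrsf1a and Tnfrsf14. The intervals were therefore not used as errors, and why they differ was not tested. In every library the level of Traf1 was above that of every receptor except Tnfrsf4, Tnfrsf18 and Cd27.

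**Figure D1:**
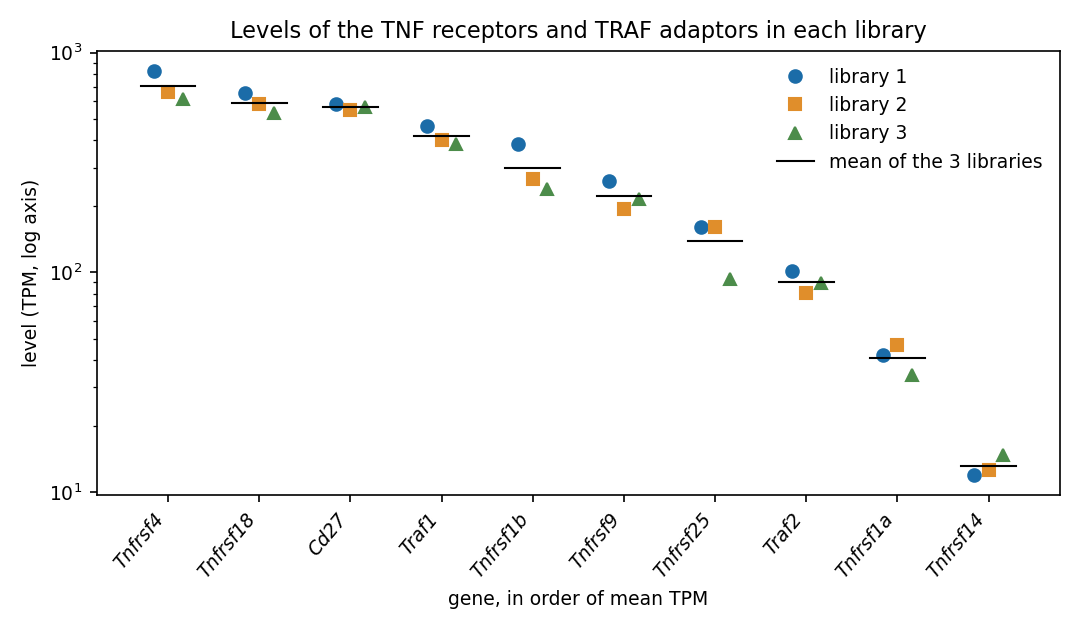
Level of each of the 10 genes (TPM, log axis) in libraries 1, 2 and 3, with a bar at the mean of the 3. Tnfrsf4 at a mean of 703 TPM and Tnfrsf14 at 13.1 TPM are the ends of the range, library 3 is far below the others for Tnfrsf25, and library 1 is far above them for Tnfrsf1b.

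The order by mean TPM was Tnfrsf4, Tnfrsf18, Cd27, Traf1, Tnfrsf1b, Tnfrsf9, Tnfrsf25, Traf2, Tnfrsf1a and Tnfrsf14. Neighbours were said to differ where the log2 ratio of TPM + 1 had the same sign in all 3 libraries and a mean above 2 SDs, and 5 of the 9 neighbouring pairs met this. Tnfrsf4 exceeded Tnfrsf18 by 0.25 ± 0.08, Cd27 exceeded Traf1 by 0.45 ± 0.11, and Traf1 exceeded Tnfrsf1b by 0.51 ± 0.21. Lower in the order, Traf2 exceeded Tnfrsf1a by 1.13 ± 0.31 and Tnfrsf1a exceeded Tnfrsf14 by 1.57 ± 0.35. The other 4 did not differ beyond their spread: the log2 ratios were 0.05 ± 0.13 for Tnfrsf18 to Cd27, 0.39 ± 0.21 for Tnfrsf1b to Tnfrsf9, 0.72 ± 0.47 for Tnfrsf9 to Tnfrsf25 and 0.57 ± 0.47 for Tnfrsf25 to Traf2. Of these, only Tnfrsf18 to Cd27 changed sign between libraries. The drop of Tnfrsf25 in library 3 took its ratio to Traf2 from 0.98 in library 2 to 0.06 in library 3.

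For 8 pairs chosen by function, a log2 ratio above 1 was asked for as well, and 7 met both conditions. TNF receptor 2 exceeded TNF receptor 1 (Tnfrsf1b to Tnfrsf1a) by 2.81 ± 0.34, with 3.16, 2.49 and 2.78 in libraries 1, 2 and 3. Traf1 exceeded Traf2 by 2.19 ± 0.10. Among the costimulatory receptors, Tnfrsf4 exceeded Tnfrsf9 by 1.65 ± 0.13 and Cd27 exceeded Tnfrsf9 by 1.35 ± 0.17. Of the death domain receptors, Tnfrsf25 exceeded Tnfrsf1a by 1.70 ± 0.25. The receptor Tnfrsf14 was lower than its partner Btla by a log2 ratio of -2.59 ± 0.06. Tnfrsf18 exceeded Foxp3, the lineage-defining transcription factor of these cells, by 2.98 ± 0.21. The remaining pair, Tnfrsf18 to Tnfrsf4, had a ratio of -0.25 ± 0.08, which was short of the limit of 1. In the second deposited gene table, counted per kilobase, the ratio was 0.93 ± 0.21 for Tnfrsf1b to Tnfrsf1a, 1.00 ± 0.10 for Traf1 to Traf2 and -0.58 ± 0.07 for Tnfrsf14 to Btla, so that these 3 pairs kept their sign but no longer met the limit and 4 of the 8 did. Of those 4, Tnfrsf18 to Foxp3 was also much smaller there, at 1.55 ± 0.15.

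Within their families the 10 genes held most of the transcripts. The 8 receptors made up 91.3%, 91.0% and 89.9% of the summed TPM of 28 superfamily genes in libraries 1, 2 and 3. Of the other 20 receptor genes, 11 were above 1 TPM in every library and 9 were under 1 TPM in every library. The most abundant of these was Fas, the death receptor that clears activated lymphocytes, at 88.2, 72.7 and 98.1 TPM. Tnfrsf13b encodes TACI, best known on B cells, and was next at 63.9, 52.7 and 33.3 TPM, while the B cell receptor gene Tnfrsf13c was at 2.62, 3.04 and 3.61 TPM and Cd40 at a mean of 1.91 TPM. Tnfrsf26 and Tnfrsf22 followed at means of 32.8 and 30.5 TPM. Thus only Fas and Tnfrsf13b among the other receptors had a mean above that of Tnfrsf1a, and none reached that of Tnfrsf25.

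Traf1 and Traf2 together held 65.5%, 62.7% and 68.6% of the summed TPM of the 7 TRAF genes, of which Traf1 alone held 53.7%, 52.2% and 55.7%. Traf5, a close relative of TRAF3 that binds CD27 and OX40, came second at 157, 150 and 93.5 TPM. Traf7, which has a different C-terminal domain, was at 84.8, 80.6 and 98.6 TPM and was of the same order as Traf2. Traf3, which limits noncanonical NF-kB signalling by promoting degradation of the kinase NIK, was at 25.2, 23.2 and 12.0 TPM. Traf6, which also serves interleukin-1 and Toll-like receptors, was at 25.9, 26.9 and 11.1 TPM.

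**Figure D2:**
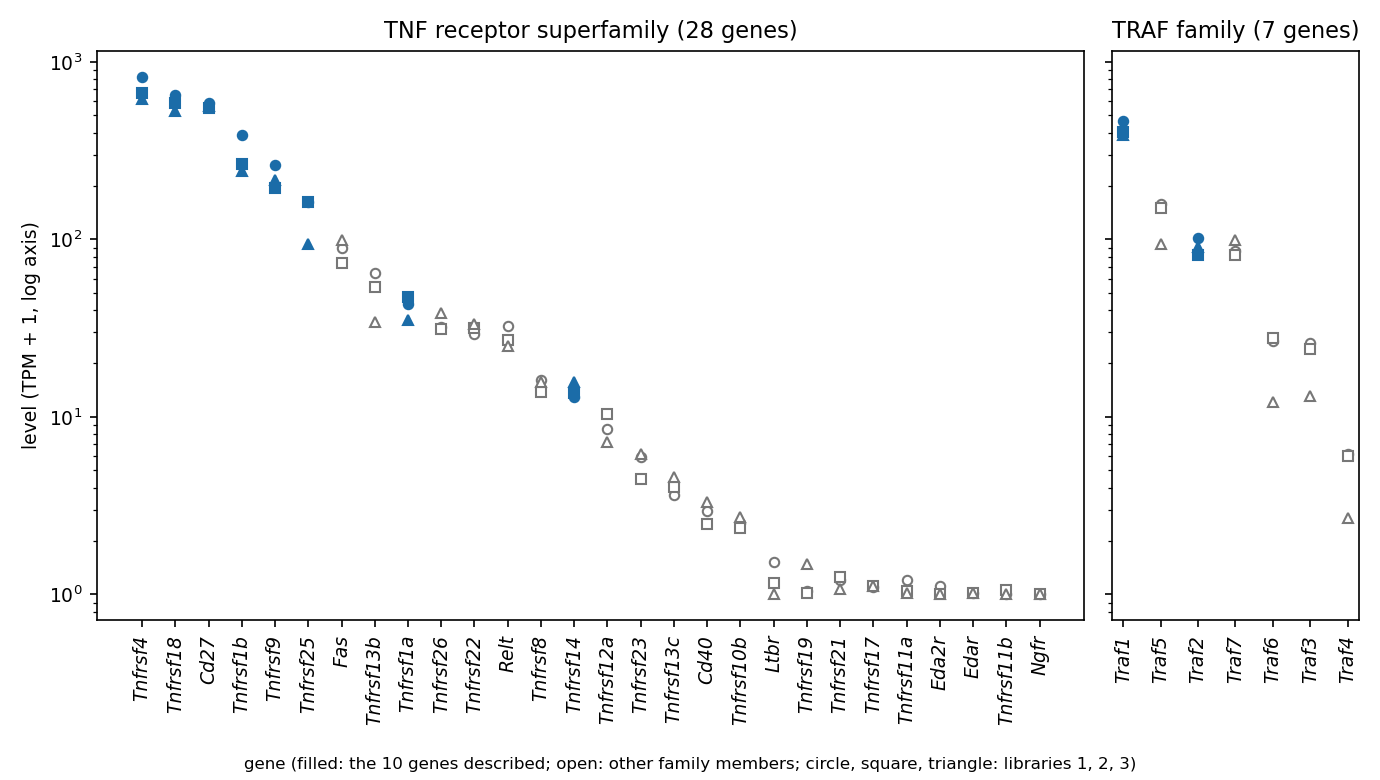
Level (TPM + 1, log axis) of the 28 TNF receptor superfamily genes and the 7 TRAF genes in libraries 1, 2 and 3 (circles, squares and triangles), with the 10 genes described filled and the others open. The 6 most abundant receptor genes are all filled, and Traf1 stands above the other 6 TRAF genes in every library.

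The ligands of these receptors were unevenly represented. Those of GITR (Tnfsf18), OX40 (Tnfsf4), CD27 (Cd70) and DR3 (Tnfsf15) were all under 1 TPM in every library, the highest being Tnfsf4 in library 3 at 0.84 TPM. The CD137 ligand gene Tnfsf9 was at 8.40, 6.72 and 7.84 TPM. Tnf was at 38.4, 39.2 and 42.1 TPM and Lta, which encodes the other ligand of both TNF receptors, at 115, 111 and 121 TPM. The HVEM ligand gene Tnfsf14 was at 9.74, 12.0 and 12.4 TPM and Btla at 79.3, 76.9 and 96.1 TPM. Of the ligand list, Ltb was the most abundant gene at 1397, 1261 and 317 TPM, with library 3 far below the others. Its product forms a heterotrimer with lymphotoxin alpha, but the lymphotoxin beta receptor is not one of the 8 receptors. The gene of that receptor, Ltbr, was at 0.52, 0.16 and 0 TPM.

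All 22 genes for partners and regulators of TRAF signalling were above 1 TPM in every library. Traf3ip3 was the highest at 524, 488 and 541 TPM. Rbck1, a subunit of the linear ubiquitin chain assembly complex, was at 328, 292 and 136 TPM, Tank at 210, 161 and 196 TPM, and Sharpin, another subunit of that complex, at 173, 185 and 79.5 TPM. All 11 genes of the IKK complex and the NF-kB family were likewise above 1 TPM. Nfkbia, the inhibitor that NF-kB itself induces, was at 734, 664 and 298 TPM, Ikbkb at a mean of 235 TPM, Rela at a mean of 137 TPM and Nfkbib at a mean of 81.9 TPM.

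The libraries were next compared with the spread that counting alone would give. A chi-square test of the rounded expected counts against Poisson sampling, with edgeR TMM library sizes and Benjamini-Hochberg adjustment over the 14877 genes that averaged 10 or more counts, asked whether a gene varied among libraries 1, 2 and 3 beyond counting error. All 10 genes passed at an adjusted p of 0.05, beside 63.9% of all genes tested, so varying between these libraries was common and did not set the 10 apart. The chi-square ran from 10.9 for Cd27 (adjusted p = 0.00817) to 1730 for Tnfrsf1b, on 18908, 12031 and 10658 expected counts. The variation beyond counting error, as a coefficient of variation, was 2.26% for Cd27, 6.67% for Tnfrsf18, 9.12% for Traf2, 9.89% for Traf1, 10.3% for Tnfrsf1a, 13.1% for Tnfrsf4, 14.7% for Tnfrsf9, 24.7% for Tnfrsf14, 24.8% for Tnfrsf1b and 26.9% for Tnfrsf25. Its median was 11.7% over the 10 genes and 13.3% over all genes tested. These values come from counts. In TPM, counting error included, the coefficient of variation was only 10.9% for Tnfrsf14, but 25.9% for Tnfrsf1b and 28.2% for Tnfrsf25. With only libraries 1 and 2, Tnfrsf25 (adjusted p = 0.57) and Tnfrsf14 (adjusted p = 0.286) no longer passed, so both calls rested on library 3. Without library 1 the adjusted p was 0.19 for Tnfrsf18 and 0.131 for Cd27, and without library 2 it was 0.207 for Cd27.

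Library 3 was the lowest for 6 of the 10 among the calls (Tnfrsf4, Tnfrsf18, Tnfrsf1b, Tnfrsf1a, Tnfrsf25 and Traf1), beside 29.8% of all genes tested, and the highest for 1, Tnfrsf14, beside 24.3%. Library 1 was the highest for 7 of the 10 (Tnfrsf4, Tnfrsf18, Cd27, Tnfrsf9, Tnfrsf1b, Traf1 and Traf2), beside 22.0% of all genes tested. With DESeq2 size factors the same counts were 6 and 7, and with total counts they were 4 and 6, Tnfrsf18 and Traf1 leaving the first group and Cd27 the second. In the second gene table, with its own TMM sizes, library 1 stayed the highest only for Tnfrsf1b and Traf2 of those 7. The log2 difference of library 3 from the mean of libraries 1 and 2 was -0.75 for Tnfrsf25, -0.42 for Tnfrsf1b, -0.23 for Tnfrsf4, -0.23 for Tnfrsf1a, -0.16 for Traf1, -0.12 for Tnfrsf9, -0.11 for Tnfrsf18, -0.02 for Traf2, 0.00 for Cd27 and 0.59 for Tnfrsf14. Its median was -0.14 over the 10 genes and 0.02 over all genes tested. The 10 regulatory T cell core genes showed a similar direction: 6 of them had library 3 lowest among the calls, with a median difference of -0.20. In TPM, library 1 was the highest for every core gene except Foxp3. Of the 11 T cell identity genes, 10 had library 3 highest, with a median difference of 0.21.

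Library 3 also differed from the others in how it counted GC-rich transcripts, which touches the comparison of the 10 genes with their partners. Local GC content was taken as the highest GC percentage of any 200-base window of the most abundant transcript of a gene. Over 9305 coding genes the median log2 difference of library 3 was 0.15 for the 1904 genes with a local GC content of at most 58.5% and -0.83 for the 1855 genes at 73.0% or more. The 10 genes lay in a narrow band of 59.5% for Tnfrsf9 to 66.5% for Tnfrsf1a, and the medians of all genes were 0.10 from 59.0% to 63.5% and 0.03 from 64.0% to 67.5%. After the trend with GC content was removed, the library 3 difference was -0.72 for Tnfrsf25, -0.39 for Tnfrsf1b, -0.30 for Tnfrsf4 and 0.49 for Tnfrsf14, and the median over the 10 was -0.20. The other 5 TRAF genes had a median local GC content of 69.0%. All 5 passed the test and library 3 was the lowest for 4 of them, with a median difference of -0.82 that became -0.44 after removal. Of the 22 TRAF partners 20 passed, 12 with library 3 lowest and 5 with it highest, of the 11 IKK and NF-kB genes 11 passed, 7 with it lowest and 3 with it highest, of the 10 ligand genes 6 of the 8 tested passed, 1 with it lowest and 4 with it highest, and of the other 20 receptors 5 of the 11 tested passed, 2 in each direction. Ltb, at a local GC content of 74.0%, had a difference of -2.05, which was -1.16 after removal. The part of GC content in the library 3 values of single genes was not tested.

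**Figure D3:**
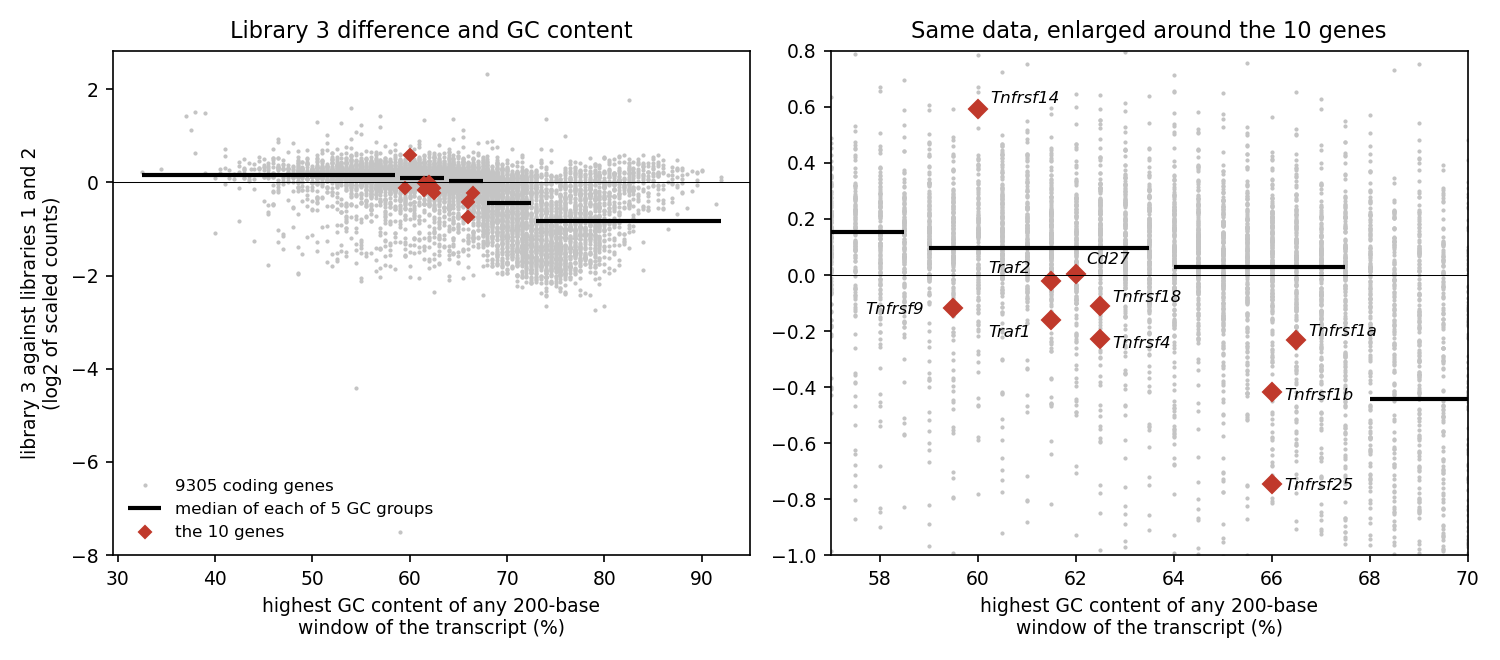
Difference of library 3 from libraries 1 and 2 (log2 of scaled counts) against local GC content (%) for 9305 coding genes (grey), the median of each of 5 GC groups (bars) and the 10 genes (red), with the right panel enlarged. The 10 genes sit between 59.5% and 66.5% GC, left of the GC-rich genes whose medians fall to -0.83, and Tnfrsf25 at -0.75 and Tnfrsf14 at 0.59 lie farthest from 0.

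Each gene was then divided into its annotated transcripts by the deposited isoform percentages, which are model-based shares of a gene's TPM. The most abundant transcript held a median of 62.1% ± 3.3 over the 10 genes, and protein-coding transcripts held a median of 86.0% ± 3.4. Tnfrsf1b was in effect 1 transcript, Tnfrsf1b-201, at 99.3% ± 1.1, and Tnfrsf1a-201 held 90.8% ± 6.9. Tnfrsf4-201 held 78.6% ± 0.8 and Traf2-202 78.9% ± 3.8, with Traf2-201, whose product is 501 residues long and not 508, at 19.3% ± 4.1. The other genes were divided more evenly.

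Tnfrsf9 was divided between a full-length receptor and a shorter product. Tnfrsf9-205, with 256 residues, held 56.2%, 66.0% and 50.3% in libraries 1, 2 and 3, and Tnfrsf9-204, with 211 residues, held 34.9%, 29.9% and 32.9%. Both products share their first 179 and last 31 residues, and in place of residues 180 to 225 of the longer product Tnfrsf9-204 has 1 residue. A 19-residue window with a mean Kyte-Doolittle hydropathy of at least 1.6, a usual sign of a membrane-spanning stretch, was looked for beyond the first 40 residues of each coding product. In Tnfrsf9-205 the strongest window began at residue 186 with a mean of 2.76, inside the stretch that Tnfrsf9-204 lacks, and in Tnfrsf9-204 the highest mean was 1.07. All Tnfrsf9 transcripts whose product had no such window together held 37.3%, 31.6% and 33.2% of the gene's TPM (mean 34.0% ± 3.0). A splice form of mouse CD137 without the membrane-spanning exon is known to give a soluble receptor; protein was not measured here. The same search found such a window in the leading product of each of the other 7 receptors and in no product of Traf1 or Traf2, which are cytoplasmic. Outside Tnfrsf9, coding transcripts without one held 0.68% ± 0.31 of Tnfrsf18, and 52.5%, 44.8% and 8.46% of Tnfrsf14, which rested on few counts and did not repeat between libraries. The annotated coding sequences of those Tnfrsf14 transcripts, of 326 and 275 bases, are not whole numbers of codons. Their products may therefore be incomplete in the annotation, and the lack of a window does not show a form without a membrane-spanning stretch.

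The 2 main Tnfrsf9 transcripts also begin at different places, and so do those of Tnfrsf25, and the sequences before these starts are shown because transcripts assigned to both starts were present in the same RNA. RefSeq lists 2 start sites for each of the genes (promoter sequences from RefSeq, build GRCm38.p6, plus strand, 5′ to 3′). Transcripts that begin within 100 bases of the upstream Tnfrsf9 start, Tnfrsf9-204 and Tnfrsf9-201, held 37.0% ± 5.6 of its TPM, and those at the downstream start, among them Tnfrsf9-205, held 58.2% ± 8.4. Capitals mark matches to the kappaB consensus, the binding motif of NF-kB. Of the downstream Tnfrsf9 window only 30 bases are shown: the last 81 of its 250 bases lie in an annotated exon of Tnfrsf9-208, a minor transcript at 0.44%, and the stretch shown is inside that exon. The upstream Tnfrsf9 window is chr4:150919905-150920154, the downstream stretch chr4:150927954-150927983, and the Tnfrsf25 windows are chr4:152115684-152115933 and chr4:152116093-152116342.
Tnfrsf9 upstream start: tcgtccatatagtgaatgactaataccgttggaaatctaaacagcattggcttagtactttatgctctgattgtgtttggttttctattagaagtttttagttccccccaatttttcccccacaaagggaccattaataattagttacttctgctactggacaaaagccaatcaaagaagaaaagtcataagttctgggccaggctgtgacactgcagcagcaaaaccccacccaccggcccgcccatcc
Tnfrsf9 downstream start: ctGGGGATTTCCCaggaggccctgctcagt
Tnfrsf25 upstream start: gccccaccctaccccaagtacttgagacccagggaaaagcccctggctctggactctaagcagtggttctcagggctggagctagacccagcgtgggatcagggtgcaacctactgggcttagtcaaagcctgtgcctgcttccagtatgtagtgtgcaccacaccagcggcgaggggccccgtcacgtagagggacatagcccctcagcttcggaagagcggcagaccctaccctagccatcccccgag
Tnfrsf25 downstream start: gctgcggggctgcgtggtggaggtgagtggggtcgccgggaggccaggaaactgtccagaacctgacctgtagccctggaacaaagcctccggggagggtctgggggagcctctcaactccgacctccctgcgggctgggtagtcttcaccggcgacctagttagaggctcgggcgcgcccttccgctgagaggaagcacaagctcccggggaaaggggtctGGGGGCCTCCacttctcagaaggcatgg

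The 250 bases before the downstream Tnfrsf9 start held 2 overlapping kappaB matches, GGGGATTTCC and GGGATTTCCC, which begin 43 and 42 bases before it. They also held 1 match to TGANTCA, a form of the AP-1 motif, which does not overlap them and begins 15 bases before the start. All of these matches lie within the annotated exon of Tnfrsf9-208. The upstream Tnfrsf9 window had neither. Before the downstream Tnfrsf25 start there was 1 kappaB match, GGGGGCCTCC, beginning 28 bases before it, and the upstream window had none. On both strands, the kappaB consensus was found in 7.25% and TGANTCA in 6.75% of 32851 RefSeq promoter windows of the same length. All 10 genes had a window, 12 in all, and the other 10 windows held neither motif. Not all of these windows stand at an annotated start: that of Tnfrsf4 has 166 of its 250 bases in an exon of Sdf4 and no annotated Tnfrsf4 transcript beginning within 100 bases of its start. Annotated exons also cover 158 bases of the Tnfrsf18 window and 125 of the Tnfrsf14 window. Transcripts that begin within 100 bases of those starts held 51.7% ± 3.4 of the TPM of Tnfrsf18 and 43.8% ± 13.2 of that of Tnfrsf14. GGGCGG, a GC box found in 32.7% of all windows, occurred 2 times before Tnfrsf1b and 1 time at the upstream Tnfrsf9 start, and TATAAA, found in 12.4%, in none of the 12. CpG dinucleotides numbered 19 before Traf2, 14 and 8 at the downstream and upstream Tnfrsf25 starts, 12 before Tnfrsf1b and 9 before Tnfrsf1a, against a median of 6 over all windows, and 2 to 5 before the other genes. A match of letters does not show that a factor bound there.

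Tnfrsf25 was divided between Tnfrsf25-202, which starts downstream and held 38.6%, 34.1% and 45.0%, and Tnfrsf25-201, which starts upstream and held 29.5%, 33.5% and 25.2%. Their products of 387 and 411 residues share the last 215 residues and differ before them. Their order was the same in all 3 libraries, but in library 2 they were within a percentage point. The processed transcript Tnfrsf25-204, with no coding sequence, took another 28.3% ± 1.3.

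Tnfrsf18 was divided between Tnfrsf18-203, with a product of 314 residues, at 38.6%, 42.3% and 36.8%, and Tnfrsf18-202, with 228 residues, at 36.1%, 30.1% and 44.6%. The products share their first 188 residues, which contain the hydrophobic window beginning at residue 153, and differ in the cytoplasmic end that follows. Which of them led was not the same in every library: Tnfrsf18-203 was ahead in libraries 1 and 2 and Tnfrsf18-202 in library 3. The retained-intron transcript Tnfrsf18-206 was steady at 11.0% ± 0.7.

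Cd27 and Traf1 carried the largest shares on retained introns. Cd27-201, which encodes the receptor of 250 residues, held 65.9% ± 1.5, and its retained-intron transcripts together held 31.3% ± 1.2, most of it Cd27-206 at 22.3%, 24.2% and 22.9%. Traf1 was spread over 9 annotated transcripts. Traf1-201, which encodes the protein of 409 residues, held 38.0% ± 2.6, coding transcripts of any kind 54.4% ± 1.5, retained introns 23.2% ± 1.2 and processed transcripts 22.4% ± 2.3. The start that RefSeq lists for Traf1 is that of Traf1-202, which held only 5.87% ± 1.07. As shares of expected counts, which give long transcripts more weight than shares of TPM do, the leading transcript held a median of 66.8% over the 10 genes.

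**Figure D4:**
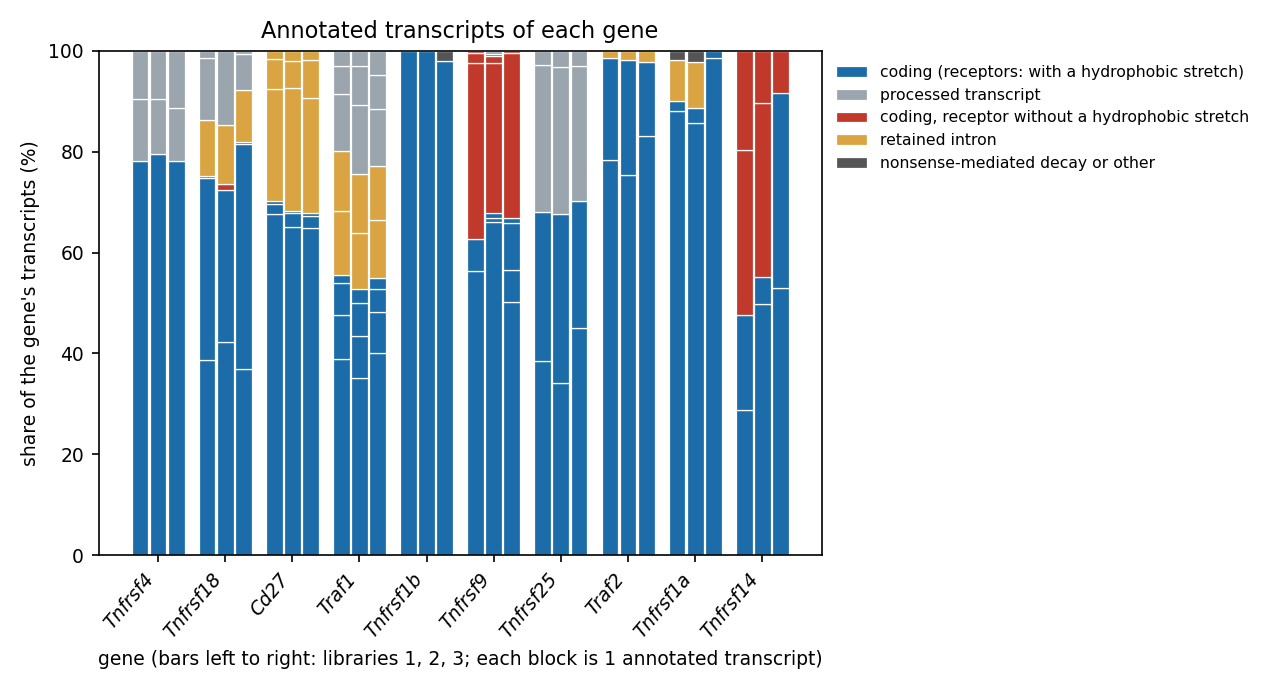
Share of each gene's TPM on each annotated transcript (%), with 1 bar per library (1, 2 and 3 from left to right) and blocks coloured by annotation and, for receptors, by whether the coding product has a hydrophobic stretch beyond its first 40 residues. In Tnfrsf9 the coding blocks without such a stretch hold 37.3%, 31.6% and 33.2%, and retained introns are widest in Cd27 and Traf1.

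By position, 6 of the 10 genes lie on chromosome 4 within 10.8 Mb (Tnfrsf1b, Tnfrsf9, Tnfrsf25, Tnfrsf14, Tnfrsf4 and Tnfrsf18), 2 on chromosome 6 (Cd27 and Tnfrsf1a) and 2 on chromosome 2 (Traf2 and Traf1), in build mm10. Tnfrsf4 (chr4:156013843-156016612) and Tnfrsf18 (chr4:156026164-156028895), the most abundant pair, are neighbours on the plus strand with 9551 bases between them. Sdf4 ends 232 bases before Tnfrsf4 on the same strand and was at 496, 440 and 464 TPM, whereas Ttll10, on the other side of Tnfrsf18, had a mean of 0.32 TPM. An antisense gene, Gm16008, overlaps Tnfrsf18 and was at 19.8, 15.6 and 15.5 TPM. No label or header used here says whether the counting used strand, so reads of Tnfrsf18 and Gm16008 may not be separable where they overlap.

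The other genes lay in varied surroundings. As annotated, Tnfrsf9 (chr4:150914562-150946102, plus strand) begins 124 bases from Park7, at a mean of 333 TPM, and overlaps Camta1 on the opposite strand, at a mean of 20.3 TPM. That outermost start belongs to Tnfrsf9-207, which had no expected counts in any library. The main transcripts Tnfrsf9-204 and Tnfrsf9-205 begin farther from Park7, at 150920155 and 150927999. Tnfrsf25 (chr4:152115934-152120119, plus strand) lies between Plekhg5 at a mean of 3.85 TPM and Espn at a mean of 12.4 TPM. Espn was at 13.8, 15.3 and 8.22 TPM, with library 3 the lowest as for Tnfrsf25. Cd27 (chr6:125232622-125237010, minus strand) lies within Vamp1 on the opposite strand, at a mean of 57.2 TPM. Tnfrsf1a (chr6:125349362-125362484, plus strand) lies between Scnn1a and Plekhg6, both under 1 TPM. Tnfrsf1b (chr4:145213463-145246870), Tnfrsf14 (chr4:154921933-154928563), Traf1 (chr2:34941750-34961772) and Traf2 (chr2:25517982-25546940) are on the minus strand. Fbxw5 and Edf1 near Traf2 had means of 100.0 and 212 TPM.

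The second deposited gene table, which holds whole-number counts of genes of GENCODE M4 from alignments to the genome, gave these genes another profile. It held 6339932, 5775622 and 5056487 counts, 30.2%, 31.3% and 28.8% of the expected counts of the first table. For the 6 most abundant genes it kept little: on average 23.8% of the expected count for Tnfrsf18, 20.9% for Traf1, 20.6% for Tnfrsf9, 20.2% for Tnfrsf4, 17.9% for Cd27 and 16.7% for Tnfrsf1b. It kept 47.9% for Traf2, 56.6% for Tnfrsf25, 61.8% for Tnfrsf1a and 101% for Tnfrsf14. Over 9163 coding genes cut into 10 groups by expected counts per base, the median kept was 22.0% in the densest group, where those 6 genes lie, and 44.1% to 51.4% in the 8 sparsest groups. Ranked per kilobase in this table, Tnfrsf4 and Tnfrsf18 were level, with a log2 ratio of 0.00 ± 0.04, and Tnfrsf25 was in place 5, above Tnfrsf1b and Tnfrsf9.

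In that table, on fewer counts, some of the abundant genes no longer passed the test between libraries. Tnfrsf1b had 2491, 2148 and 2023 counts, Traf1 2137, 1895 and 1865, and Tnfrsf9 1216, 1021 and 1053, and the same chi-square test with edgeR TMM library sizes gave adjusted p = 0.207, 0.478 and 0.128. The other 7 genes passed, beside 56.7% of all genes tested in that table. Tnfrsf25 was at 1470, 1348 and 879 counts, so library 3 was the lowest there too, with a log2 difference of -0.52. Tnfrsf14 was at 126, 126 and 184 counts, with a difference of 0.70. The difference was 0.11 for Tnfrsf4, 0.12 for Tnfrsf18, 0.05 for Traf1, 0.08 for Tnfrsf9 and 0.08 for Traf2, opposite in sign to those of the first table. For Cd27, which still passed, it was larger than in the first table, at 0.13 against 0.00. For Tnfrsf1b it was -0.04 against -0.42, so the difference itself was smaller there, and not only the counts. For Tnfrsf1a it was -0.20 against -0.23. After TMM scaling, library 1 was the lowest in the second table for Tnfrsf4, Tnfrsf18 and Cd27. How the second table was counted is not stated in the labels or headers used here, and the cause of these differences was not tested.

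**Figure D5:**
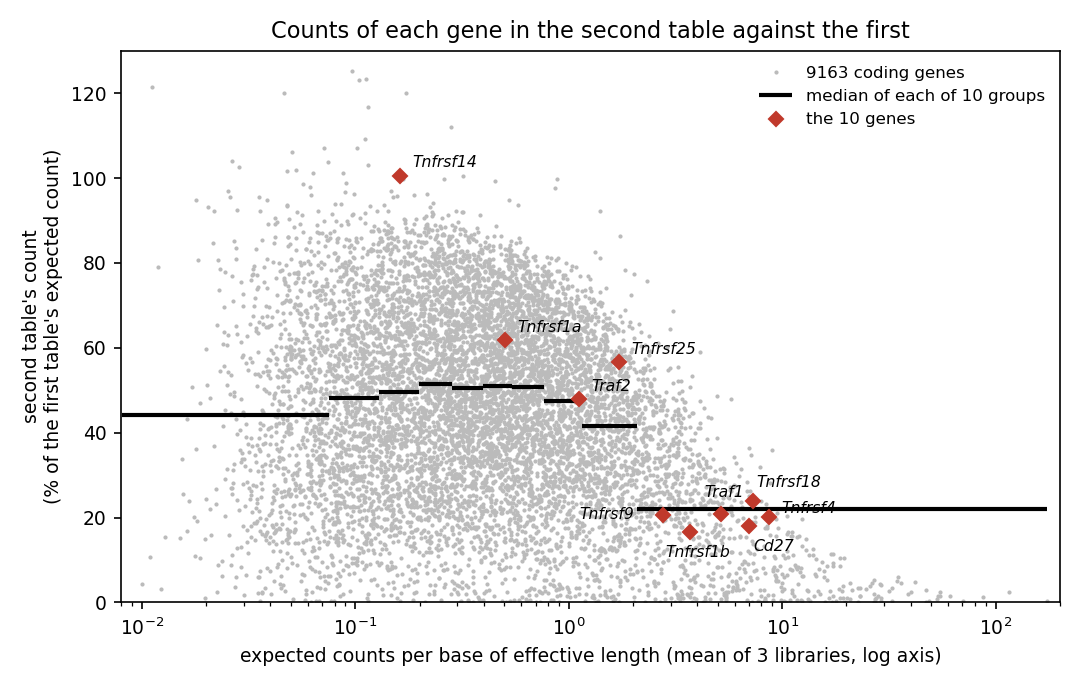
Count in the second gene table as a percentage of the expected count in the first (mean of 3 libraries) against expected counts per base of effective length (log axis), for 9163 coding genes (grey; 16 of them lie above the axis), the median of each of 10 groups (bars) and the 10 genes (red). The 6 most abundant of the 10 genes lie between 16.7% and 23.8%, Traf2, Tnfrsf1a and Tnfrsf25 between 47.9% and 61.8%, and Tnfrsf14 at 101%.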

How the data were processed

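The authors deposited, for each of the 3 libraries, gene and transcript tables for GENCODE M21 on mm10 that hold, per the file headers, expected counts, TPM, FPKM and, for transcripts, the percent of the gene's TPM (isoform percentage). They also deposited a second gene table of whole-number counts for GENCODE M4. The labels and headers used here name no aligner, counter or strand setting. Entries for 26248 tRNAs, 96 spike-in controls and 1 phage genome were left out, which left 55536 genes. Expected counts were rounded for the chi-square test, TMM sizes came from edgeR 4.0.16 and alternative size factors from DESeq2 1.42.0, and the rest was computed in Python 3.11.15 with scipy 1.17.1, statsmodels 0.14.6 (lowess fraction 0.3 over coding genes averaging 100 or more counts) and a pseudocount of 1 TPM. On simulated data with Poisson spread, 14887 genes were tested for differences among libraries 1, 2 and 3. The test called 50%, 68%, 98% and 100% of genes changed in library 3 by 1.25, 1.5, 2 and 4 fold, and 0.068% of unchanged genes. The 10 genes, the related lists and the tests were chosen with earlier results of these data known. Named from each related list were the 4 genes with the highest mean TPM, those under 1 TPM in every library where there were 4 or fewer, and those in the 8 pairs. Marker lists were named by their most abundant gene with Foxp3, Cd4 and Il2ra, and neighbours within 20 kb were considered. Tnfrsf13c, Cd40, Ltbr, Tnfsf9 and Tnfsf14 fall outside that rule and were named after their values were seen. The same holds for the marker genes Xbp1, Prdm1, Igha, Sdc1, Tnfrsf17, Cdh5, Kdr, Col1a1 and Col1a2. Library numbers are the technical replicate numbers of the labels. Counting intervals cover counting error only, and a p-value here measures differences between the 3 libraries of 1 animal's cells, at whatever step they arose.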

Additional observations from a re-analysis of the deposited data

How the results depend on the processing

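The number of the 10 genes that differed between libraries was 10 with DESeq2 size factors, total counts, a minimum mean count of 50, no minimum, or the GC trend removed, 7 in the second gene table, and 8 to 9 when 1 library was left out. Of all genes tested, 63.9% passed as reported, 58.7% with the GC trend removed and 56.7% in the second gene table. The share over all genes is not given for the other settings, so these counts do not set the 10 apart. Neighbours that differed numbered 5 to 7 under every alternative run, 5 of 9 as reported, but the pairs were not always the same. Traf1 to Tnfrsf1b no longer differed without library 2 (0.47 ± 0.29) or without library 3 (0.43 ± 0.22). In the second gene table Tnfrsf4 to Tnfrsf18 did not differ, whereas Tnfrsf18 to Cd27 and Tnfrsf25 to Traf2 did. Of the 8 fixed pairs, 7 differed with a pseudocount of 0.1, with the GC trend removed and when any 1 library was left out (7 to 7), but 4 in the second gene table per kilobase. There the log2 ratios of Tnfrsf1b to Tnfrsf1a (0.93), Traf1 to Traf2 (1.00) and Tnfrsf14 to Btla (-0.58) kept their sign and missed the limit, and that of Tnfrsf18 to Foxp3 was 1.55 and not 2.98. The median library 3 difference of the 10 genes was -0.14, and -0.13 with DESeq2 size factors, -0.06 with total counts, -0.20 with the GC trend removed, -0.22 to -0.05 with library 1 or 2 left out, and 0.078, opposite in sign, in the second gene table. The median share of the leading transcript was 62.1%, from 60.4% to 63.7% when 1 library was left out, and 66.8% as a share of expected counts. The causes were not tested beyond what each setting changes by construction. Levels in FPKM or as TPM over nuclear coding genes are on other scales: 18 of them moved by more than the spread between libraries. No paired analysis was possible because there is 1 group. Only 1 animal was sampled, so variation between animals is unknown, and Tnfrsf14 rests on 122 to 180 expected counts per library, too few to give its transcript shares with certainty.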
